A study of Mus musculus with 7 samples.

Results

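The guanylate-binding proteins (GBPs) and the immunity-related GTPases (IRGs) are the large GTPases that mouse cells make under interferon. The family list held 10 genes, Gbp2, Gbp3, Gbp5, Gbp7, Gbp8, Gbp9, Iigp1, Irgm1, Igtp and Tgtp1. They were chosen by name, with earlier results of these data known. A gene was measured where a probe set of the array is annotated to that gene alone, and the brightest such probe set was used. By this rule 7 of the 10 were measured, 5 GBPs and 2 IRGs, among 19938 measured genes in all. Gbp2, Igtp and Tgtp1 have only probe sets that are annotated to several genes, and they count as not measured here. Each of the 7 measured genes had 1 probe set of its own.

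The 7 arrays hold RNA of macrophages that were sorted by flow cytometry out of the lamina propria, the tissue under the gut epithelium, of the colon. The mice were C57BL/6 and 6 weeks old. Il10ra_mKO (2 arrays, sorted as resident macrophages) are mice with both Il10ra alleles floxed and a Cre recombinase driven by the Cx3cr1 gene, labelled CX3CR1cre:IL10Raflox/flox. Cx3cr1 is active in blood monocytes and in macrophages of several tissues, not only in the colon. Their controls are the 3 arrays called WT resident, from mice labelled wild type that carry a Cx3cr1gfp/+ reporter. Il10_KO (1 array, sorted as CX3CR1hi macrophages) lacks the cytokine in the whole animal and carries the same reporter (IL10-/- CX3CR1gfp/+), and its control is 1 array of CX3CR1hi macrophages from Cx3cr1gfp/+ mice, called WT CX3CR1hi. Cre goes with the Il10ra deletion and GFP with the controls in the resident arrays, so the allele and the deletion cannot be told apart. The sort label cannot be told apart from the extraction kit as far as the protocol numbers the samples in series order. Whether arrays within a group are separate animals is not in the labels. Intervals and p-values therefore cover the spread between these arrays alone, which may be technical.

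Array medians lay between log2 5.77 and 5.92. Arrays of the resident label correlated across all probe sets at a Pearson r of 0.976 to 0.991, the CX3CR1hi arrays at 0.988, and arrays of different labels at 0.917 to 0.935. Il10ra itself was at log2 8.05 and 7.04 in the Il10ra_mKO arrays, against 10.56, 10.76 and 11.12 in WT resident. Il10 was at 10.75 in Il10_KO, against 11.04 in WT CX3CR1hi. Whether its probe set covers the deleted part is unknown here, so it does not check that label. The mean of 12 macrophage markers was high in every array, at 11.26 and 11.48 in Il10ra_mKO, 11.43 to 11.56 in WT resident, 11.65 in Il10_KO and 11.53 in WT CX3CR1hi. Of these markers 3 of 12 lay above all WT resident arrays in Il10ra_mKO and 4 of 12 below, against 8.92% and 8.5% of all genes. Those above were C1qa (log2 difference 0.16), Fcgr1 (0.61) and Mertk (0.95). Those below were Cx3cr1 (-0.49), Mrc1 (-0.78), Itgam (-0.25) and Cd163 (-1.70). Cd163 was low in Il10ra_mKO, at 6.32 and 6.04. Epithelial RNA was also abundant, and its values stand with the marker lists below.

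Interferon-gamma acts through its receptor and the kinases JAK1 and JAK2 on GAS elements in DNA, while type I interferons act mainly on the ISRE, through a complex that includes STAT2 and IRF9. Both routes, with IRF1 as an intermediate, can switch on GBP and IRG genes. GBPs coat bacteria and the vacuoles around parasites and feed into inflammasome activation. Among the IRGs, Iigp1 and Tgtp1 are effectors that load onto pathogen vacuoles, and Irgm1 and Igtp are regulators that sit on the cell's own membranes and keep the effectors off them. IL-10 signals through STAT3 and restrains the activation of macrophages, which in the colon live beside a dense bacterial flora.

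The promoters are shown because GAS and ISRE are the elements through which interferon acts on this family. RefSeq promoter windows (build GRCm38.p6, 250 bases before to 50 after an annotated start) were found for 7 of the 10 listed genes, Gbp2, Gbp3, Gbp5, Gbp7, Irgm1, Igtp and Tgtp1. The windows were searched on both strands for GAS as TTCNNNGAA and for the core of an ISRE as GAAANNGAA. GAS reads the same on both strands and was counted once. The 250 bases before the start follow for 4 measured genes in gene direction, 5′ to 3′, with every match in capitals. They lie at chr3:142496684-142496933 (plus strand) for Gbp5, chr3:142530086-142530335 (plus) for Gbp7, chr3:142559794-142560043 (plus, the first of 2 annotated starts) for Gbp3 and chr11:48871421-48871670 (minus) for Irgm1.
Gbp5: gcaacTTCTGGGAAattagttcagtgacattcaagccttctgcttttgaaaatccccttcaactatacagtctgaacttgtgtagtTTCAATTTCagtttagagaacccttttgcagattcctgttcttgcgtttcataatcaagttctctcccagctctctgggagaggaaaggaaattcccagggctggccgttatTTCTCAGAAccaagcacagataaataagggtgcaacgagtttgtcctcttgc
Gbp7: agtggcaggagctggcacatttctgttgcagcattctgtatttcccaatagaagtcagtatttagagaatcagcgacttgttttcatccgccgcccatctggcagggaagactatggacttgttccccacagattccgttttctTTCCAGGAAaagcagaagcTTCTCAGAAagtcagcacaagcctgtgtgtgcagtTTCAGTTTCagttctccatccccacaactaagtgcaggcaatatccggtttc
Gbp3: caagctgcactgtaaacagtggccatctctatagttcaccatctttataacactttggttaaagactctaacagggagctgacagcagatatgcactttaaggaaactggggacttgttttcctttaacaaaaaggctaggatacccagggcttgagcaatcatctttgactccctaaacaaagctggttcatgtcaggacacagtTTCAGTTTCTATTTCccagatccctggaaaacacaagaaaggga
Irgm1: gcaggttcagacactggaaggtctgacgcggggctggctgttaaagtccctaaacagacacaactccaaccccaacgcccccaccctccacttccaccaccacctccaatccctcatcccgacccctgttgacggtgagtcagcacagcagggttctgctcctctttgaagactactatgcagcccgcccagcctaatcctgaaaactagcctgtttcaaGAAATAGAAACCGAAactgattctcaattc

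Gbp5 had GAS matches starting at -245 and -52 and an ISRE core at -164, counted from the start site. Gbp7 had GAS matches at -106 and -87 and an ISRE core at -52. Gbp3 and Irgm1 had no GAS match in this window and 2 overlapping ISRE cores each, at -44 and -38 in Gbp3 and at -30 and -24 in Irgm1. Thus 2 of the 4 measured genes with a window held a GAS match and 4 of 4 an ISRE core. A gene was counted if any of its windows held a match, and the window of the other Gbp3 start held none. Of the 15614 measured genes with a window, 8.99% held a GAS match, 9.2% an ISRE core and 1.13% both in 1 window. Of the genes at least 2-fold higher in Il10ra_mKO, which include Gbp5, Gbp7 and Irgm1, 31 of 143 with a window (21.7%) held an ISRE core and 17 (11.9%) a GAS match. Among those at least 2-fold lower, 18 of 218 (8.26%) held an ISRE core and 20 (9.17%) a GAS match. The matches are letters in a window and were not tested for binding.

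For the 3 listed genes that were not measured, 60 bases around the matches are shown, because both IRGs among them carry the same arrangement. They lie at chr11:58199496-58199555 (plus strand) for Igtp, chr11:48992289-48992348 (minus) for Tgtp1 and chr3:142620580-142620639 (plus) for Gbp2, with the matches again in capitals.
Igtp: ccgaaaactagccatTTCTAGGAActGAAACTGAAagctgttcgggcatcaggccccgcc
Tgtp1: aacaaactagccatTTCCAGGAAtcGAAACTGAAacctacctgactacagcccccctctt
Gbp2: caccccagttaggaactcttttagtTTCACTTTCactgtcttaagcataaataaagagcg

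In Igtp and Tgtp1 the GAS match begins 11 bases before an ISRE core that reads in the gene's direction. This spacing, chosen after the matches were seen, was present in 8 of 27025 genes of the promoter table (0.0296%), and 5 of the 8 were IRG genes: Igtp, Tgtp1, Irgm2, Tgtp2 and Gm12185. Igtp and Tgtp1 defined the spacing, so their place among the 8 was fixed in advance. Among genes with a promoter window it was present in 2 of 7 listed genes and 3 of 10 other family genes. Gbp2 held an ISRE core at -58 and no GAS match in its window. In the order of the RefSeq gene table Gbp5, Gbp7 and Gbp3 follow each other, as do Gbp8, Gbp9 and Gbp4, and Igtp lies between Gm12250 and Irgm2.

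**Figure D1:**
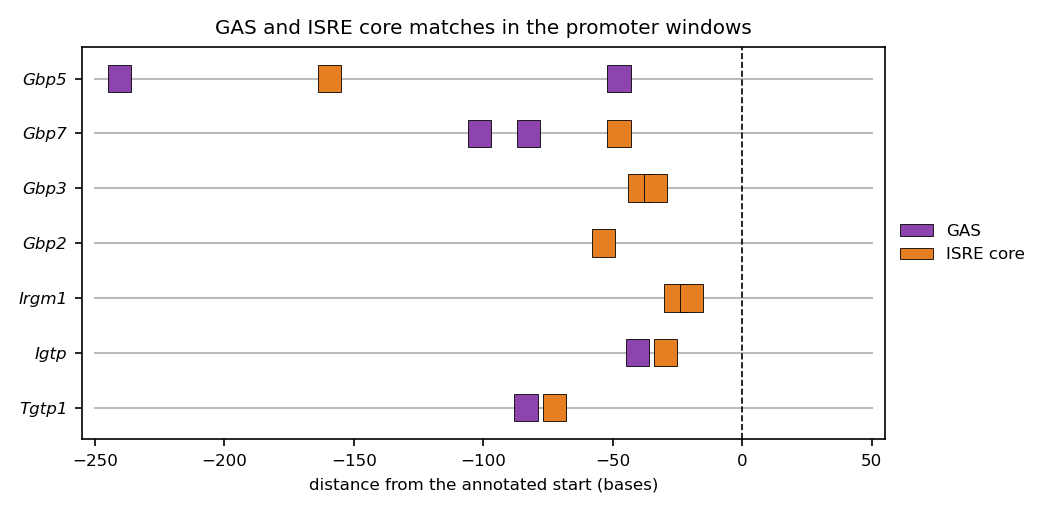
Positions of GAS (purple) and ISRE core (orange) matches in the promoter windows of 7 listed genes, drawn against the distance from the annotated start in bases (dashed line at the start; first window of Gbp3). All 7 windows hold an ISRE core before the start, and 4 of them (Gbp5, Gbp7, Igtp and Tgtp1) also hold GAS.

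All 7 measured GTPase genes had more RNA in macrophages with the Il10ra deletion. They were 1.80-fold (Gbp3) to 4.90-fold (Gbp5) higher in Il10ra_mKO than in WT resident, with a median difference of 1.61 on the log2 scale, against 0 over all genes tested. In every one of them both Il10ra_mKO arrays lay above all 3 WT resident arrays. The differences below are means of 2 Il10ra_mKO arrays minus means of 3 WT resident arrays, with the standard error (SE) of the limma fit. In bulk RNA of sorted cells, more cells of a type and more RNA per cell cannot be told apart.

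Gbp5, which in mouse macrophages promotes assembly of the NLRP3 inflammasome, was at log2 10.17 and 9.85 in Il10ra_mKO, against 7.77, 7.34 and 8.04 in WT resident. The nearest arrays of both groups were 1.82 apart, a wider gap than the whole WT range. Gbp5 was 4.90-fold higher (log2 2.29 ± 0.26, SE; 95% interval 1.57 to 3.02; adjusted p = 0.243).

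Gbp8, a member of the second gene cluster, was at 10.56 and 10.71 in Il10ra_mKO, against 9.06, 8.85 and 9.18 in WT resident. It had the smallest spread among WT resident arrays of the 7 genes (SD 0.17, n = 3), and its groups were well apart. The difference was 1.61 ± 0.13, 3.05-fold, with the lowest adjusted p of the family (0.172).

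Gbp7, which in mouse macrophages takes part in assembling the phagocyte oxidase, was at 11.12 and 11.26 in Il10ra_mKO, against 9.85, 9.92 and 10.36 in WT resident. WT resident array 3 was the highest control but stayed 0.76 below the nearer Il10ra_mKO array. The difference was 1.15 ± 0.19, 2.22-fold (adjusted p = 0.341).

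Gbp9 was at 9.41 and 9.82 in Il10ra_mKO, against 8.05, 8.48 and 9.06 in WT resident. Gbp3 was at 10.10 and 10.41 in Il10ra_mKO, against 9.08, 9.39 and 9.75 in WT resident. In both genes the controls spread over a wide range, and the nearest arrays of the groups were only 0.35 apart. Gbp9 was 2.12-fold higher (1.09 ± 0.36; 95% interval 0.059 to 2.11; adjusted p = 0.598) and Gbp3 was 1.80-fold higher (0.85 ± 0.24; 95% interval 0.16 to 1.53; adjusted p = 0.528).

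Among the IRGs, the effector Iigp1, which helps break the vacuoles of intracellular parasites, was at 10.36 and 10.28 in Il10ra_mKO, against 8.39, 7.55 and 8.14 in WT resident. Its nearest arrays were 1.89 apart, the widest gap of the 7 genes. Iigp1 was 4.90-fold higher (2.29 ± 0.29; 95% interval 1.48 to 3.10; adjusted p = 0.257).

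Irgm1, the regulator that guards the cell's own membranes and is needed against mycobacteria, was at 10.40 in both Il10ra_mKO arrays, against 8.60, 8.47 and 8.98 in WT resident. The mutant arrays differed by less than the controls did among themselves. Irgm1 was 3.29-fold higher (1.72 ± 0.18; 95% interval 1.22 to 2.22; adjusted p = 0.219). An effector and a regulator of the IRG system were thus both higher.

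**Figure D2:**
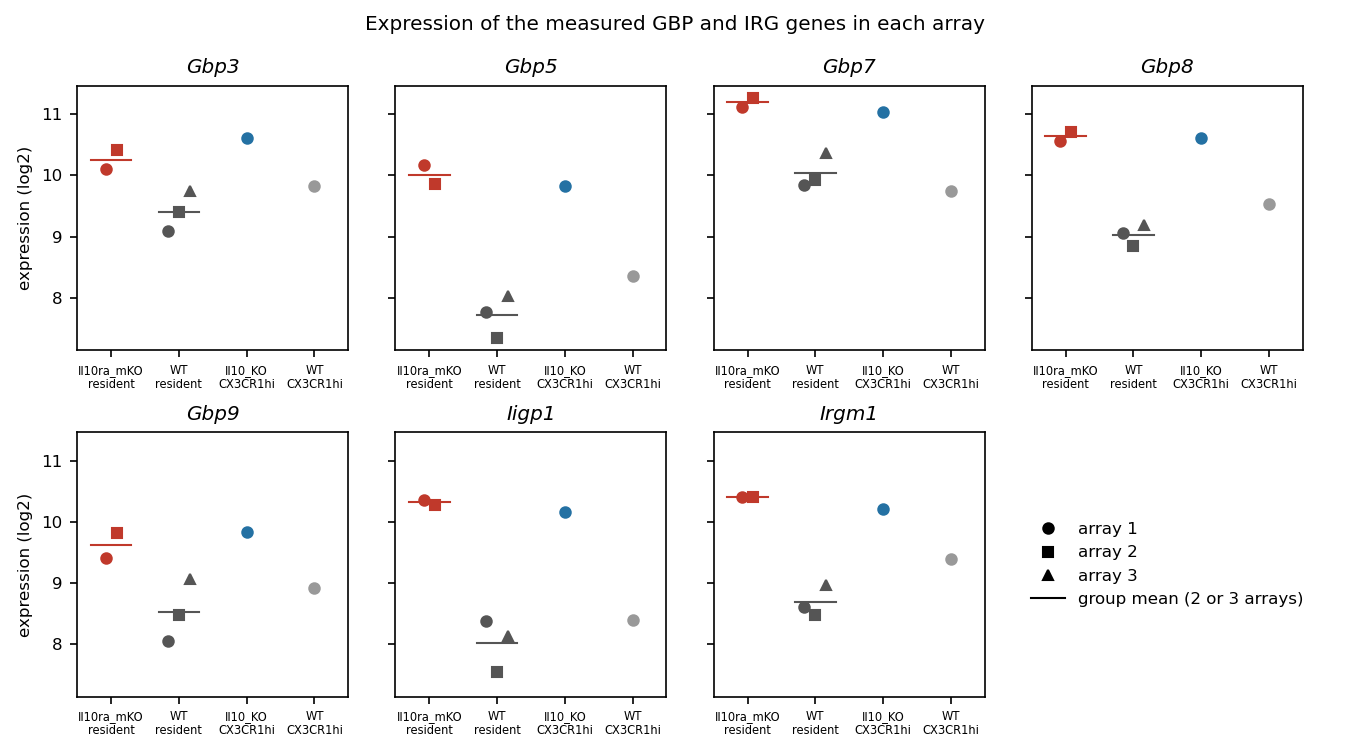
Expression on the log2 scale of the 7 measured genes in each array, by group; symbols mark the array within its group and lines the mean of groups of 2 or 3 arrays. In each gene both Il10ra_mKO arrays lie above the 3 WT resident arrays, and the Il10_KO array above the WT CX3CR1hi array.

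Both Il10ra_mKO arrays above all WT resident arrays was found in 7 of 7 measured GTPase genes, against 8.92% of all genes tested. Both below all WT resident arrays was found in none of the 7, against 8.5% of all genes. By limma over 19938 genes, 0 of the 7 passed an adjusted p of 0.05, where 0% of all genes passed as higher and 0.00502% in either direction, a single lower gene. At an unadjusted p under 0.05 the 7 were all higher, against 4.06% of all genes. At least 2-fold higher were 6 of 7, all but Gbp3, against 0.953% of all genes. The family was chosen with earlier results of these data known. These shares, and those for Il10_KO below, therefore describe it and do not test it. Identical values bear on the fit, since 60.4% of genes hold the same deposited value in at least 2 resident arrays, and none of the 7 does. With the fit limited to the 7901 genes without such ties, an alternative chosen after seeing the data, 5 of 7 passed (Gbp5, Gbp7, Gbp8, Iigp1 and Irgm1), against 1.37% of those genes. With quantile normalization over the 7 arrays 4 of 7 passed, without Gbp7, against 0.341%. Leaving out any 1 resident array left the median difference at 1.52 to 1.68. Gbp3 and Gbp9 lost an unadjusted p under 0.05 without either Il10ra_mKO array and without WT resident array 1 or 2.

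The numbers in the sample titles put the resident arrays into 2 runs of neighbouring numbers, each with 1 Il10ra_mKO array. Within the first run (1 Il10ra_mKO against 2 WT arrays) the 7 differences were 0.86 to 2.61, and within the second (1 against 1) 0.66 to 2.13. All 7 were positive in both runs. How many of all genes were positive in both was not computed, so this count describes the family and does not test it.

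**Figure D3:**
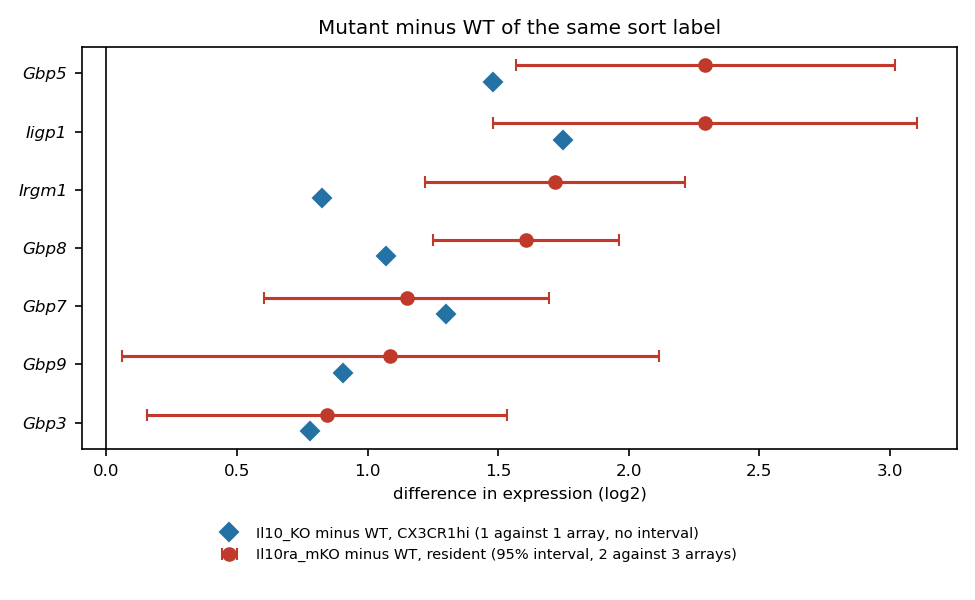
Differences in expression (log2, mutant minus WT of the same sort label) of the 7 genes: circles with 95% intervals of the limma fit for Il10ra_mKO (2 against 3 arrays) and diamonds for Il10_KO (1 against 1 array, no interval drawn). Every point lies above 0, from 0.78 (Gbp3 in Il10_KO) to 2.29 (Gbp5 in Il10ra_mKO).

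The macrophages of the Il10_KO mouse label also had more RNA of the 7 genes than their control. This comparison has 1 array on each side and no replicate check. Iigp1 was at 10.15 in Il10_KO, against 8.40 in WT CX3CR1hi (3.36-fold), and Gbp5 at 9.83, against 8.35 (2.79-fold). Both were also the highest differences in Il10ra_mKO. Gbp7 was at 11.04 in Il10_KO, against 9.74 in WT CX3CR1hi (2.46-fold), and Gbp8 at 10.61, against 9.54 (2.10-fold).

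The other 3 stayed under 2-fold. Gbp9 was at 9.83 in Il10_KO, against 8.92 in WT CX3CR1hi (1.87-fold), Irgm1 at 10.21, against 9.39 (1.77-fold), and Gbp3 at 10.61, against 9.83 (1.72-fold). At least 2-fold higher were thus 4 of 7, against 0.692% of all genes, with Gbp8 (1.07 on the log2 scale) just inside and Gbp9 (0.91) just outside. Higher at all were 7 of 7, against 56.3% of all genes. In 7 of 7 the Il10_KO array lay above all 4 WT arrays of both sort labels. The share of all genes that did so was not computed. Sort label and kit also differ from the WT resident arrays, so this count is a description only.

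Differences in Il10ra_mKO and in Il10_KO were set against each other as a contrast in the fit, which assumes that the lone CX3CR1hi arrays vary as resident arrays of 1 group do. Sort label and kit go with the choice of mutant. The median of the 7 contrasts (Il10ra_mKO effect minus Il10_KO effect) was 0.53 on the log2 scale, and 0.30 without WT resident array 2. Irgm1 had the largest, 0.89 ± 0.33 (SE; 95% interval -0.025 to 1.81; adjusted p = 0.33), followed by Gbp5 at 0.81 ± 0.47 (-0.52 to 2.15). Gbp7 alone was larger in Il10_KO, with a contrast of -0.15 ± 0.36 (-1.16 to 0.86). By limma 0 of 7 contrasts passed, against 4.7% of all genes, and 0 of 7 had an unadjusted p under 0.05, against 15.8%. These shares include the 60.4% of genes with identical resident values, which none of the 7 has. They therefore do not show that the family differs less between the mutants than other genes. Without WT resident array 3 the contrast of Irgm1 was 1.04, with an unadjusted limma p of 0.00457 and an adjusted p of 0.082. The 95% interval of all 7 contrasts included 0 and reached 0.66 to 1.90 to either side of the estimate, so differences of that size between the mutants were not resolved.

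Among the controls, WT CX3CR1hi lay above all 3 WT resident arrays in 5 of 7 genes (Gbp3, Gbp5, Gbp8, Iigp1 and Irgm1), within their range in Gbp9 and below it in Gbp7. Without the matching share of all genes, which was not computed, the count cannot be read as a trait of the family. Its distance from the WT resident mean ran from -0.30 (Gbp7) to 0.71 (Irgm1) on the log2 scale, and sort label and kit go with it. WT resident array 3 was the highest of the 3 WT resident arrays in 6 of 7 genes, all but Iigp1. It was also the highest control for genes outside the family, such as Ccr2 and Il7r, and its share over all genes was not computed. The mean log2 value of the 7 genes was 10.31 and 10.39 in Il10ra_mKO and 8.69, 8.57 and 9.07 in WT resident. It was 10.33 in Il10_KO and 9.17 in WT CX3CR1hi. Over the 7 arrays, after the WT mean of the same sort label was subtracted, the 21 pairs of genes had a Pearson r of at least 0.822, with a median of 0.926. This r is a description, since the arrays share the split between mutant and WT. The subtraction also leaves WT CX3CR1hi with no difference in any gene. Between both Il10ra_mKO arrays the genes did not all go one way, and 3 of 7 were higher in array 1.

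Other genes of the family had the same direction where they were bright. Of the 7 other GBP genes listed, 3 were measured, with a median difference of 1.69. In 3 of 3 both Il10ra_mKO arrays lay above all WT resident arrays, against 8.92% of all genes. Gbp4 was at 10.72 and 10.49 in Il10ra_mKO, against 8.15, 8.20 and 8.82 in WT resident, a difference of 2.22 ± 0.26 (SE). Gbp11 was at 7.90 and 8.37 in Il10ra_mKO, against 6.49, 6.14 and 6.70 in WT resident (1.69 ± 0.25). Gbp2b varied most among the controls, with 8.80, 9.58 and 10.31 in WT resident, against 10.53 and 10.94 in Il10ra_mKO, and had an unadjusted p above 0.05.

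Of 16 other IRG genes listed 6 were measured, and 4 of them had both Il10ra_mKO arrays above all WT resident arrays and an unadjusted p under 0.05. Over all genes, 8.92% had both arrays above, and 4.06% were higher at that p. Gm4951 differed by 2.15 ± 0.29 in Il10ra_mKO and by 1.55 in Il10_KO, and Gm12250 by 1.71 ± 0.24 and by 1.12. Gm12185 (1.06 ± 0.34) and Gm4841 (0.66 ± 0.14) had smaller differences in Il10ra_mKO. Irgc1 and Irgq, which are IRG relatives, were dim and did not move with the rest, at -0.01 and 0.00 in Il10ra_mKO. Mx1 and Mx2, antiviral GTPases of the dynamin superfamily, differed by 0.69 ± 0.33 and 0.25 ± 0.11, and in neither did both Il10ra_mKO arrays exceed all WT resident arrays. None of the genes in these lists passed an adjusted p of 0.05 in limma for the difference between Il10ra_mKO and WT resident. For the Il10ra_mKO effect minus the Il10_KO effect, Irgc1 (adjusted p = 0.0393) and Irgq (adjusted p = 0.0446) passed, with sizes of 0.10 and 0.087. Probe sets of close paralogues in this family may share signal.

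Upstream of the family, 13 of 14 listed genes of interferon-gamma signalling were measured. All 13 had a positive difference in Il10ra_mKO, as did 9649 of the 19938 genes tested. At an unadjusted p under 0.05, 3 of 13 were higher, against 4.06% of all genes. The median difference was 0.30. Irf1, the transcription factor that relays interferon-gamma to GBP genes, was at 11.79 and 11.37 in Il10ra_mKO, against 10.84, 10.42 and 10.27 in WT resident (1.07 ± 0.24). Jak2, a receptor kinase, was at 9.60 in both Il10ra_mKO arrays, against 8.27, 8.63 and 9.16 in WT resident (0.92 ± 0.30). Socs1, a feedback inhibitor of JAK kinases, was at 5.63 and 5.58 in Il10ra_mKO, against 4.86, 4.89 and 4.93 in WT resident (0.71 ± 0.03, adjusted p = 0.0902 in limma). All its values lie under 5.86, the median of all values, so Socs1 is a dim gene.

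The receptor genes differed little, Ifngr1 by 0.11 ± 0.11 and Ifngr2 by 0.05 ± 0.04. The ligand gene Ifng was dim, at 5.70 and 5.23 in Il10ra_mKO, against 5.23, 5.17 and 5.09 in WT resident, with overlapping groups. Of type I interferon signalling 9 of 9 listed genes were measured and had a positive difference, as did 9649 of the 19938 genes tested. The median difference of the 9 was 0.26. Leaving out Il10ra_mKO array 2 gave 0.13, and leaving out array 1 gave 0.39. Irf7 (1.09 ± 0.19) and Stat2 (1.00 ± 0.21) were the 2 of 9 with an unadjusted p under 0.05, against 4.06% of all genes as higher. Ifnb1, the type I ligand, overlapped between the groups (0.19 ± 0.40).

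Genes that interferon-gamma induces lay beside the GTPases. In this list 14 of 14 were measured, with a median difference of 1.15. Both Il10ra_mKO arrays lay above all WT resident arrays in 12, against 8.92% of all genes. An unadjusted p under 0.05 and a higher value were found in 10, against 4.06%, and 9 were at least 2-fold higher, against 0.953%. Nos2, the inducible nitric oxide synthase, was at 9.86 and 8.03 in Il10ra_mKO, against 5.03, 5.13 and 5.08 in WT resident (3.86 ± 0.61). Its 2 mutant arrays were farther apart than those of any measured GTPase. Nlrc5, the regulator of MHC class I genes, differed by 2.09 ± 0.26, and Cxcl9, a T cell attracting chemokine, by 1.86 ± 0.25. Serping1, the complement C1 inhibitor, went the other way, with both Il10ra_mKO arrays below all WT resident arrays (-0.47 ± 0.24) and a difference of -0.56 in Il10_KO.

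Genes known mainly as type I interferon targets were higher by less. Of 16 listed 14 were measured, with a median of 0.55. All 14 had a positive difference, as did 9649 of the 19938 genes tested. At an unadjusted p under 0.05, 2 of 14 were higher, against 4.06% of all genes. They were Rsad2, an antiviral gene (1.40 ± 0.28), and Oasl2 (0.73 ± 0.25). The antiviral genes Ifit2 and Ifit3 differed by 1.08 ± 0.44 and 0.81 ± 0.41 and did not reach that p. In Il10_KO the median of these 14 genes was 0.10, against 1.07 for the 7 GTPases and 0.89 for the interferon-gamma targets. The difference between the lists was not tested.

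**Figure D4:**
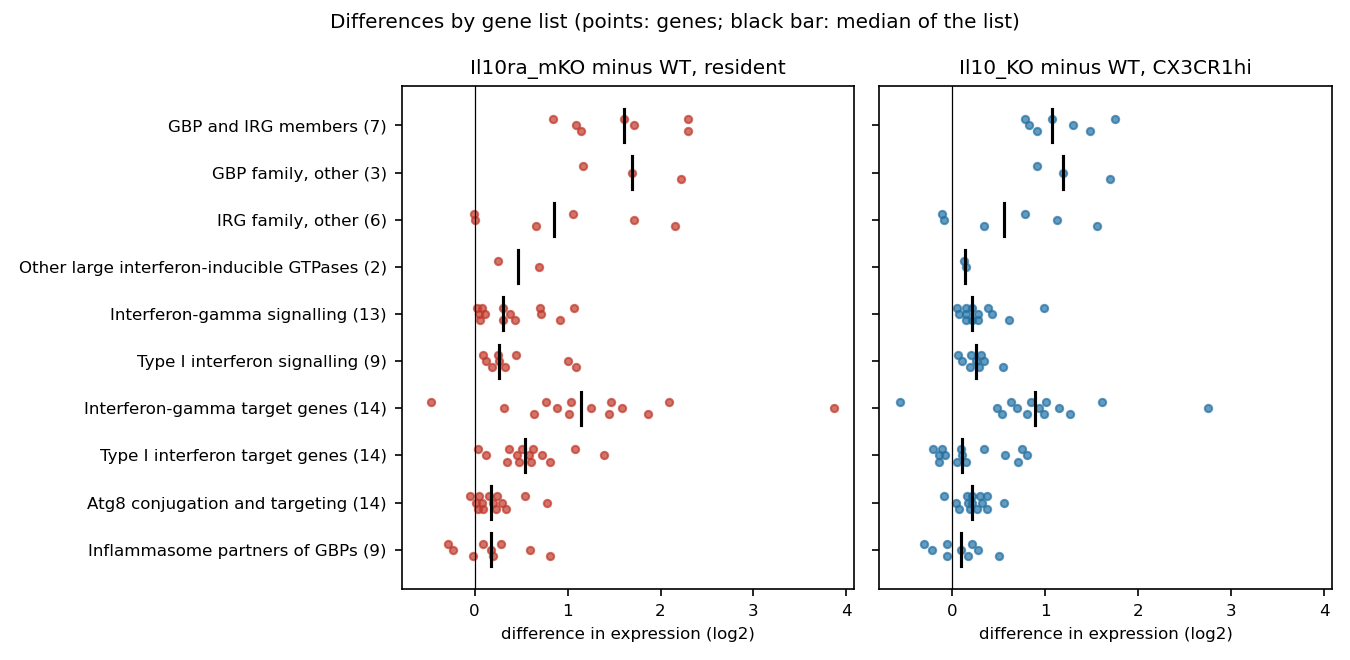
Log2 differences (mutant minus WT of the same sort label) of the genes in each list for Il10ra_mKO and Il10_KO, with the median of each list. The measured GTPases have medians of 1.61 in Il10ra_mKO and 1.07 in Il10_KO, against 0.55 and 0.10 in type I interferon targets.

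The machinery with which these GTPases work differed less. One list held the Atg8 conjugation system, which tags vacuoles for IRG and GBP loading, and targeting genes such as Traf6 and Rnf213. In it 14 of 14 genes were measured, with a median of 0.17, and of 0.10 without Il10ra_mKO array 2. The 3 with an unadjusted p under 0.05 were Rnf213, a large ubiquitin ligase (0.78 ± 0.20), the ligase gene Traf6 (0.54 ± 0.15) and Atg16l1, of the conjugation complex (0.24 ± 0.05). Atg5, of the same complex, differed by 0.34 ± 0.15 and did not reach it. Over all genes, 4.06% were higher at that p. In 9 of 9 measured inflammasome partners the median was 0.18, and 1 had an unadjusted p under 0.05. Without Il10ra_mKO array 1 the median was 0.31, without array 2 it was 0.049, and without WT resident array 2 it was 0.10. The partner with an unadjusted p under 0.05 was Gsdmd, which encodes the pore-forming gasdermin D. Gsdmd was at 8.42 and 8.58 in Il10ra_mKO, against 7.66, 7.72 and 7.70 in WT resident (0.81 ± 0.06). Il1b (0.60 ± 0.31) and Pycard, the adaptor ASC (-0.29 ± 0.21), did not reach that p.

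Markers of other cells differed between the groups too. The 12 epithelial markers averaged 10.95 and 9.13 in Il10ra_mKO, against 10.77 to 11.15 in WT resident, with the low value in Il10ra_mKO array 2. Of these markers 1 of 12 had a positive difference, against 9649 of the 19938 genes tested. Epcam, the epithelial surface marker, was at 10.57 and 9.15 in Il10ra_mKO, against 10.64, 11.16 and 10.85 in WT resident. The 7 GTPases averaged 10.31 and 10.39 in Il10ra_mKO arrays 1 and 2. Fibroblast and muscle markers (11) averaged 6.54 and 6.45 in Il10ra_mKO, against 6.94 to 7.39 in WT resident, with 1 of 11 positive. Col1a1, a collagen gene, was at 7.23 and 6.93 in Il10ra_mKO, against 7.83, 8.11 and 7.67 in WT resident.

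Lists of immune cell markers had higher means in Il10ra_mKO, but their members did not all go one way. A positive difference was found in 9649 of the 19938 genes tested. Neutrophil markers (7) averaged 6.72 and 6.31 in Il10ra_mKO, against 5.94 to 6.03 in WT resident, with 7 of 7 positive and 5 of them dim. Dendritic cell markers (7) averaged 6.66 and 6.95 in Il10ra_mKO, against 6.03 to 6.33 in WT resident, with 5 of 7 positive. Clec9a (2.91) and Ccr7 (2.31) were far higher in Il10ra_mKO, while Cd209a was lower (-2.22). Monocyte markers (6) averaged 8.41 and 8.01 in Il10ra_mKO, against 7.68 to 7.95 in WT resident, but 3 of 6 were positive and their median difference was 0.03. F10 was higher by 3.12, Fn1 differed by -1.46, and Ccr2 lay within the WT resident range. B and plasma cell markers (6) averaged 8.07 and 8.45 in Il10ra_mKO, against 7.66 to 7.82 in WT resident, with 4 of 6 positive. Ms4a1 differed by 1.55 and Cd79a by 1.14, while Jchain, the brightest of them, differed by -0.17. Endothelial and glial markers (7) did not separate the groups, at 5.98 and 5.89 in Il10ra_mKO, against 5.89 to 6.11 in WT resident.

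Markers of T cells, NK cells and innate lymphoid cells (11), the main sources of interferon-gamma, averaged 6.00 and 6.01 in Il10ra_mKO, against 5.76 to 5.92 in WT resident. Of these 10 of 11 were positive, against 9649 of the 19938 genes tested, and 9 of 11 were dim. Cd4 and Il7r, which were bright, differed by 0.02 and 0.13, with overlapping groups. Both Il10ra_mKO arrays lay above all WT resident arrays in 3 of 11, against 8.92% of all genes. Cd3e, of the T cell receptor complex, was at 6.10 and 5.69 in Il10ra_mKO, against 5.59, 5.36 and 5.32 in WT resident. Cd3d, of the same complex, was at 4.61 in both Il10ra_mKO arrays, against 4.61, 4.60 and 4.61 in WT resident, and Ncr1, an NK cell receptor, was dim in every array. In Il10_KO the T, NK and ILC mean was 5.94, against 5.59 in WT CX3CR1hi, and the epithelial mean 11.01, against 11.53. The part of these cells in the GTPase differences was not tested.

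**Figure D5:**
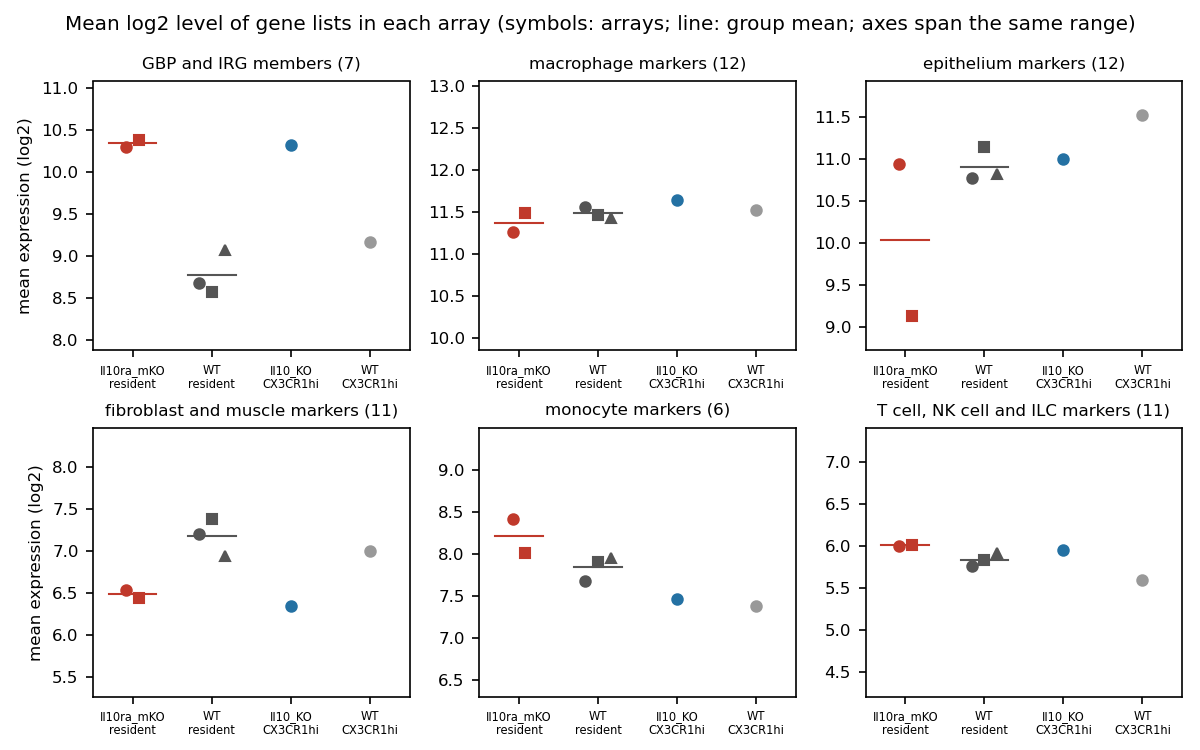
Mean log2 level of the 7 GTPase genes and of 5 cell type marker lists in the 7 arrays, by group; symbols are arrays, lines group means, and every axis spans the same range of log2 units. Epithelial markers are lowest in Il10ra_mKO array 2 (9.13), and the mean of the macrophage markers is high in all arrays (11.26 to 11.65).

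The genes whose array profile was most like the mean of the 7 GTPases were sought among 10418 other genes that were bright enough. Likeness was Pearson's r over 7 arrays, after the WT mean of the same sort label was subtracted. The 6 closest were Tnfrsf14, a receptor of the TNF family (r = 0.997), Mmp25, a matrix metalloproteinase (0.997), Hk3, a hexokinase (0.996), Nod1, a sensor of bacterial cell wall (0.995), Gsap (0.994) and Eif4e3 (0.994). Mmp25 had the widest difference of them, 2.13 ± 0.27 in Il10ra_mKO and 1.68 in Il10_KO. Eif4e3 had the narrowest, 0.57 ± 0.10 in Il10ra_mKO and 0.44 in Il10_KO. The ranking is by shape only and was chosen from many genes, and the arrays share the split between mutant and WT.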

How the data were processed

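Expression was measured on 7 Affymetrix arrays. The values deposited by the authors are log2 expression, from 3.55 to 14.78, made with RMA and Partek, per the submitters' processing notes. Tool versions, the genome build and joint or separate normalization of the arrays are not given in the sources used. Of 35399 probe sets, 21789 are annotated to 1 gene symbol, 1621 to several and 11989 to none, per the deposited platform annotation. The brightest one-symbol probe set per gene was kept, with names checked by gene ID against RefSeq (21698 matched), leaving 19938 genes.

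The test was limma's moderated fit (version 3.58.1, R 4.3.3; eBayes with a variance trend), with 1 mean for each of the 4 groups and Benjamini-Hochberg adjustment over all 19938 genes at 0.05. The residual degrees of freedom were 3, from the resident arrays alone, so precision is limited by how few arrays there are. The script was tested on simulated data with known changes. Those data held no identical values, so that run cannot show how such values affect the fit. Replicate numbers follow accession order and pair no arrays.

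The genes of the family and the other lists were chosen with earlier results of these data known. The naming rule allowed any gene of the family and signalling lists, of which only some are named. It further took the 3 with the largest absolute difference in each other pathway list, the 6 genes most alike in profile, Il10ra, Il10 and defining markers of cell types. Atg16l1, Oasl2, Serping1 and the markers that carry or oppose a list's mean were named after their values were seen. The alternatives were the mean of all one-symbol probe sets, a brightness filter (above log2 5.86 in at least 2 arrays), quantile normalization, no variance trend, resident arrays only, runs as a block, each resident array left out, and, chosen after seeing the data, only genes without identical resident values. Promoter windows came from RefSeq (GRCm38.p6). Protein sequences were not used here. Figures were drawn with matplotlib 3.10.9.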

Additional observations from a re-analysis of the deposited data

Results flagged for a closer look

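Irgc1 and Irgq, both relatives of the IRG genes, had a difference between the effects in both mutants that passed an adjusted p of 0.05 in limma. The Il10ra_mKO effect minus the Il10_KO effect was 0.10 on the log2 scale for Irgc1 and 0.087 for Irgq. Irgc1 was at 4.72 in both Il10ra_mKO arrays, against 4.74, 4.72 and 4.72 in WT resident, and at 4.35 in Il10_KO, against 4.45 in WT CX3CR1hi. Irgq was at 4.85 in all 5 resident arrays, and at 4.70 in Il10_KO, against 4.79 in WT CX3CR1hi. Both genes are dim and hold identical or nearly identical values in the resident arrays, which alone give the spread of the fit. The CX3CR1hi side is 1 array against 1.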

How the results depend on the processing

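No paired analysis was possible because the labels give the groups no shared replicate numbers. Runs of neighbouring title numbers, which hold unequal numbers of arrays, served as a block instead and gave a median difference of 1.57. The 7 differences between Il10ra_mKO and WT resident stayed positive under all 12 alternatives, with a median of 1.52 to 1.68. The count of the 7 genes with an adjusted p under 0.05 in limma was 0, but 4 with quantile normalization and 5 with genes without identical resident values only. The prior degrees of freedom of the fit were 0.831 as deposited, 3.07 with quantile normalization and 3.34 without tied genes, and 60.4%, 0.532% and 0% of genes were tied. Over all alternatives the adjusted p ran from 0.0117 to 0.575 for Gbp5, 0.0394 to 0.783 for Gbp7, 0.0111 to 0.553 for Gbp8, 0.0135 to 0.553 for Iigp1 and 0.0119 to 0.635 for Irgm1. It ran from 0.122 to 0.783 for Gbp3 and 0.139 to 0.783 for Gbp9.

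Over all genes the calls at an adjusted p under 0.05 numbered 1, but 12 with the brightness filter, 4 without a variance trend, 138 with quantile normalization, 209 without tied genes and 0 with runs as a block. They numbered 266 and 267 without Il10ra_mKO array 1 or 2 and 0 without any 1 WT resident array; the cause was not tested. The median of the other IRG genes was 0.86, and 1.39 with the brightness filter or without tied genes, which leave out the dim Irgc1 and Irgq.

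The contrast of Irgm1 had an unadjusted limma p of 0.0181 with quantile normalization, 0.0477 with the brightness filter and 0.0406 without tied genes, with adjusted p from 0.082 to 1 over all alternatives. The Il10ra_mKO effect minus the Il10_KO effect turned its sign in 3 genes near 0. For Gbp3 it was 0.066, but -0.0046 with runs as a block, -0.087 without Il10ra_mKO array 2 and -0.097 without WT resident array 1 (range -0.097 to 0.24 over arrays left out). For Gbp7 it was -0.15, but 0.0093 without WT resident array 3 (range -0.25 to 0.0093). For Gbp9 it was 0.18, but -0.023 without Il10ra_mKO array 2 and -0.061 without WT resident array 1 (range -0.061 to 0.45). The cause was not tested.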
